A study of Mus musculus with 2 samples.

Results

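Kinesins are the motor proteins that walk along or take apart microtubules, and centromere proteins (CENPs) build the chromosomal platform to which spindle microtubules attach. Genes of both kinds were chosen by name: a gene entered if its symbol in the array's annotation began with Kif followed by a digit or c, or with Cenp followed by a letter, and if a probe set named that gene alone. This gave 61 of the 19946 genes that had such a probe set. They were sorted by known role into 11 mitotic kinesins, 15 transport kinesins, 13 other kinesins, 21 genes with a Cenp symbol, and the pseudogene Kif4-ps. A probe set shared by Kifc1 and Kifc5b, near-identical genes for a minus-end directed spindle kinesin, was left out.

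The cells were mouse embryonic fibroblasts (MEFs), connective tissue cells grown from embryos. All of them carried an adenovirus expressing LacZ, a bacterial reporter gene, and were kept in DMEM with 1% FBS while they received 250 nM Celastrol or its solvent DMSO for 7 h. Celastrol is a triterpenoid from the thunder god vine. Total RNA of each condition was hybridised to 1 Affymetrix array, so there is no replicate, no test and no standard error, and an effect of the compound cannot be told apart from a difference between cultures or arrays. For the strain, the passage and the number of embryos behind the cells, nothing is stated in the labels.

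Cells build mitotic kinesins and many centromere proteins mainly in late cell cycle phases, while transport kinesins carry vesicles, organelles and ciliary cargo in dividing and resting cells alike. A kinesin motor domain hydrolyses ATP to step along a microtubule, and in some families to peel subunits from its end. CENP-A, a histone H3 variant, marks the centromere. The constitutive centromere-associated network, a set of subcomplexes, sits on CENP-A nucleosomes and holds the outer kinetochore.

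Values are log2 signals made by the authors with RMA, and differences are celastrol minus DMSO on that scale, so a difference of -1 is a 2-fold lower signal. A gene counted as detected if either array exceeded 5.73. Of 1210 probe sets for smell and pheromone receptor genes, 95% of values lie under that limit. Of the 61 members, 57 were detected. Kif2b, Kif9, Kif27 and Kif4-ps were not above that limit on either array, and no fold is given for them. Kif17 passed the limit on the celastrol array alone. Over all 13902 detected genes the median difference was -0.01 and the middle 50% of genes lay between -0.22 and 0.19. Differences of the receptor probe sets, which are dim, lay between -0.42 and 0.41 for their central 95%. For the fibroblast label, the intermediate filament gene Vim was at 13.85 on the DMSO array and 13.95 on the celastrol array, and fibronectin gene Fn1 at 13.42 and 13.47, and 11 of 12 fibroblast markers were detected, all but Lum. Of these 11, 8 were lower with celastrol (72.7%), where 51.9% of all detected genes were lower. The 11 had a median difference of -0.24. The lowest were S100a4 (-0.88), Postn (-0.61) and Col1a1 (-0.46), and the highest was Pdgfra (0.27). The summed log2 value of the list moved from 125.1 to 122.2. Of the markers of other cells, 5 of 9 neuronal, 2 of 6 motile cilium, 1 of 6 germ cell and 3 of 7 macrophage genes were detected, the last including Cd68 with a difference of 1.47, and the summed log2 values of the lists moved from 52.4 to 51.8, from 32.9 to 32.7, from 28.6 to 28.4 and from 39.7 to 42.2. The neuronal genes detected were Map2, at 8.02 on the DMSO array and 7.60 on the celastrol array, Tubb3, Snap25, Syp and Syt1. The macrophage genes Cd14, at 6.94 and 7.65, and Csf1r, at 5.99 and 6.25, were detected beside Cd68. Among the undetected genes were the neuronal Rbfox3 and Stmn2, the germ cell genes Ddx4 and Dazl, and the macrophage genes Adgre1 and Ptprc. Any part of other cell types in the results below was not tested.

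Most mitotic kinesins were lower in the celastrol-treated culture, transport kinesins showed no common direction, and the centromere proteins divided, with some subcomplexes lower and members of others higher. Of 57 detected members 37 were lower with celastrol (64.9%), where 51.9% of all detected genes were lower. The sizes were small. Only Cenpx, Cenpm and Kif26b were at least 1.5-fold lower, where 4.68% of detected genes were, and only Kif2a was at least 1.5-fold higher, where 6.19% were. These counts, 3 of 57 (5.26%) and 1 of 57 (1.75%), are near or under the background shares. Below the range of the receptor probe sets lay 10 members (17.5%), against 10.5% of detected genes, and above it 4 members (7.02%), against 11.2%. No member reached 2-fold in either direction, against 0.662% of detected genes lower and 1.88% higher.

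**Figure D1:**
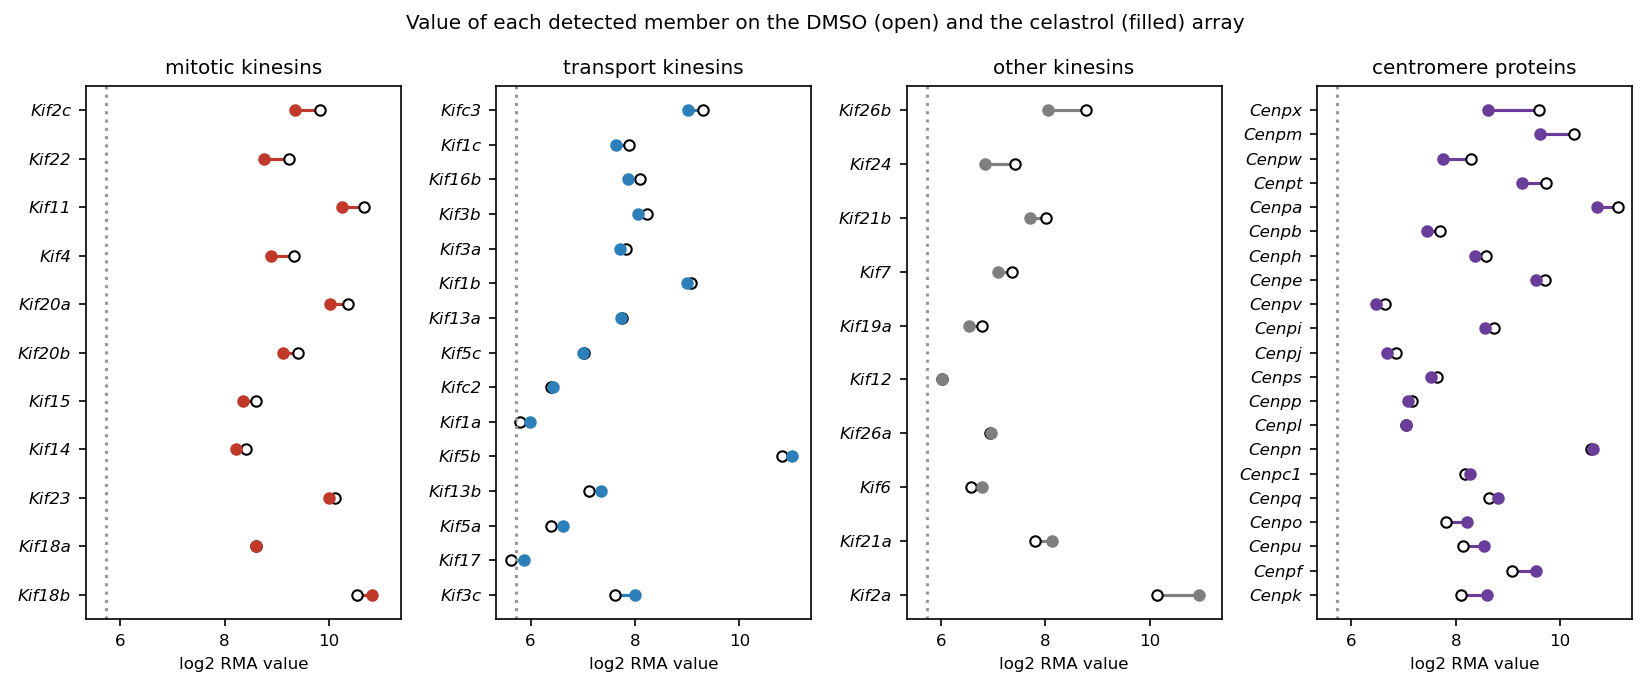
Log2 RMA value (x axis) of each of the 57 detected members on the DMSO array (open circles) and the celastrol array (filled circles), in 4 panels by class and ordered by the difference, with the detection limit dotted. In the mitotic panel the filled circle lies left of the open one for 9 of 11 genes, while the transport panel holds 8 genes with the filled circle to the left and 7 to the right.

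Of the 11 mitotic kinesins, 9 were lower with celastrol, with a median difference of -0.30 and a range from -0.49 to 0.29. None was 1.5-fold lower, and 5 were lower by at least 0.32 on the log2 scale, where 16% of detected genes were. The lowest difference was that of Kif2c, the centromeric microtubule depolymerase MCAK, at 9.83 on the DMSO array and 9.34 on the celastrol array, which is 1.40-fold lower. The chromokinesin Kif22, which moves chromosome arms away from the poles, stood at 9.23 and 8.76, 1.39-fold lower. Kif4, the other chromokinesin, which also organises the spindle midzone, stood at 9.33 and 8.89, 1.35-fold lower. These genes lay at percentiles 7.37, 7.76 and 9.60 of all detected differences.

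Kif11, the motor Eg5 that pushes the spindle poles apart, stood at 10.68 on the DMSO array and 10.24 on the celastrol array, 1.35-fold lower. Kif15, which can share that task with Kif11, differed less, with 8.60 and 8.35. The spindle-separating motors thus both had the lower value with celastrol. The kinesins of the central spindle and of cytokinesis were also lower. Kif20a, which brings the chromosomal passenger complex to the midzone, stood at 10.36 and 10.02, 1.27-fold lower. Its relative Kif20b stood at 9.41 and 9.11. Kif23, the motor subunit of centralspindlin, was at 10.12 and 10.01, a difference of -0.12. Kif14, which acts in cytokinesis, gave 8.41 and 8.22, and its second probe set was under the detection limit on both arrays.

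The mitotic kinesin-8 motors did not follow that direction. Kif18a, which limits chromosome oscillation at metaphase, was level, with 8.60 on the DMSO array and 8.61 on the celastrol array. Kif18b, which shortens astral microtubules, had the highest difference of the class, at 10.54 and 10.83, 1.22-fold higher. In these bulk samples, a smaller share of cells in mitosis and less transcript per mitotic cell cannot be told apart.

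Transport kinesins lay around 0. Of the 15 genes 8 were lower and 7 higher, the median difference was -0.01, and the range ran from -0.30 to 0.38. The 7 include Kif17, whose sign was fixed by its passing the detection limit on the celastrol array alone. None reached 1.5-fold, and the SD over the genes was 0.21, against 0.39 over all detected genes. The conventional kinesin heavy chains pointed up or were level: Kif5b, the form found in most cell types, was at 10.81 on the DMSO array and 11.02 on the celastrol array. Kif5a, best known from neurons, was at 6.40 and 6.63, and Kif5c at 7.02 and 7.00.

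The motors of ciliary and membrane transport, Kif3a and Kif3b, which pair with each other, were both slightly lower. Kif3a stood at 7.84 on the DMSO array and 7.72 on the celastrol array, and Kif3b at 8.24 and 8.06. Kif3c, also a motor subunit of that family, had the highest difference of the transport kinesins, at 7.62 and 8.01, 1.31-fold higher. Kif17, another ciliary and dendritic motor, read 5.62 and 5.87, the first of which is under the detection limit.

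Among the vesicle motors related to Kif1a, differences ran from -0.26 to 0.22. Kif1c stood at 7.90 on the DMSO array and 7.64 on the celastrol array, and its second probe set gave a difference of -0.06. Kif1b, which carries mitochondria and synaptic vesicle precursors, had a difference of -0.07. Kif1a, its neuronal relative, read 5.79 and 5.98, close to the detection limit. Kif13a was level at 7.76 and 7.74, Kif13b was at 7.12 and 7.34, and Kif16b, an early endosome motor, was at 8.10 and 7.86. The minus-end directed Kifc3 had the lowest difference of the class, at 9.31 and 9.01, 1.23-fold lower, and Kifc2 was at 6.39 and 6.43.

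**Figure D2:**
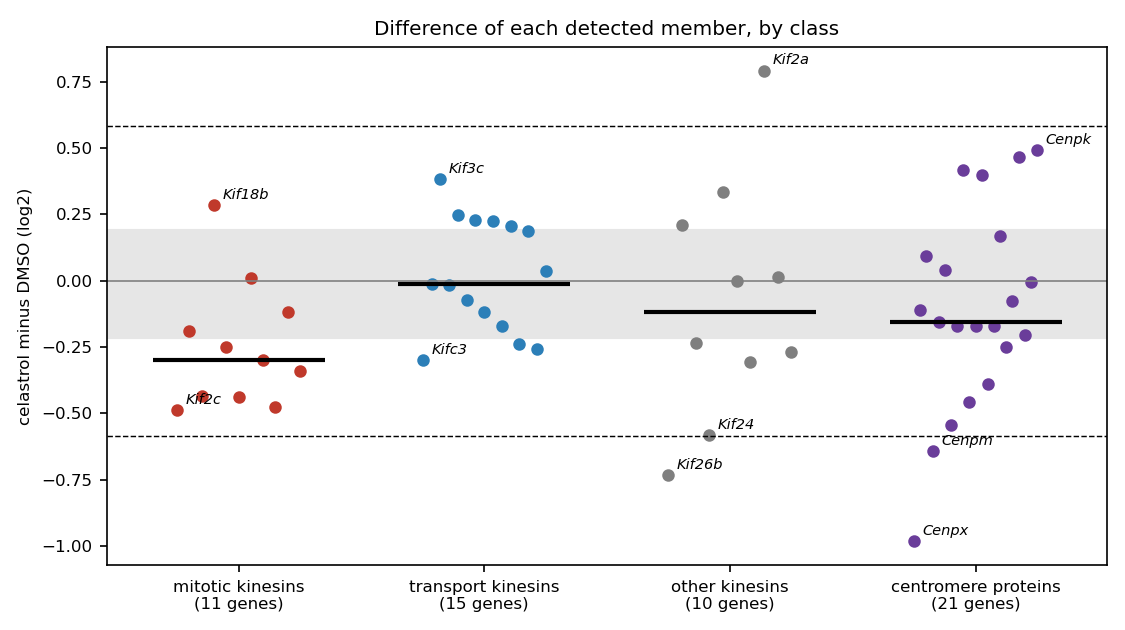
Difference celastrol minus DMSO (log2, y axis) of every detected member, 1 point per gene, by class, with the class median as a bar, the middle 50% of all detected genes in grey and the 1.5-fold limits dashed. The mitotic median of -0.30 lies under the grey band, the transport median of -0.01 within it, and 4 points lie beyond the dashed lines.

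The other kinesins, 10 detected genes, held the highest and the second lowest difference of all members. Kif2a, a microtubule depolymerase of spindle poles, axons and cilia, was at 10.14 on the DMSO array and 10.94 on the celastrol array, 1.73-fold higher, at percentile 96.6 of detected genes. Kif26b, an atypical kinesin tied to Wnt5a-Ror signalling and kidney development, was at 8.78 and 8.05, 1.66-fold lower. Its second probe set gave nearly the same difference (-0.68), from 7.89 and 7.21. Kif24, a centriolar kinesin that restrains the primary cilium, was at 7.43 and 6.85, a difference of -0.58 that is just inside the 1.5-fold limit.

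The kinesin-13 depolymerases therefore went opposite ways: Kif2a had a difference of 0.79, and Kif2c and Kif24 had differences of -0.49 and -0.58. Among the kinesin-4 relatives, Kif21a and Kif21b, which restrain microtubule growth, also had opposite signs. Kif21a was at 7.80 on the DMSO array and 8.14 on the celastrol array, and Kif21b at 8.01 and 7.71. Kif7, a regulator of Hedgehog signalling at the cilium tip, gave -0.27 on one probe set and 0.12 on the other, and Kif6 gave 0.21 and -0.40, so neither has a settled sign. Kif19a, which limits cilium length, was at 6.78 and 6.54, while Kif12 (6.02 on both arrays) and Kif26a (6.95 and 6.96) were level.

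The genes with a Cenp symbol, all 21 of them detected, had a median difference of -0.15. Of these, 14 were lower (66.7%) and 7 higher, where 51.9% of all detected genes were lower. Their spread (SD 0.38 over genes) was wider than that of the mitotic kinesins (0.24) but close to that of all detected genes (0.39). Cenpa, the centromeric histone, was at 11.10 on the DMSO array and 10.71 on the celastrol array, 1.31-fold lower. The 4 genes of the CENP-T-W-S-X complex, histone-fold proteins that bind DNA beside CENP-A, were all lower. Cenpx had the lowest difference of all members, at 9.60 and 8.62, 1.98-fold lower and at percentile 0.712 of detected genes. Cenpw stood at 8.29 and 7.75, 1.46-fold lower. Cenpt was at 9.73 and 9.27, 1.37-fold lower, and Cenps at 7.64 and 7.53, a difference of -0.11. CENP-S and CENP-X are also known from DNA repair with the Fanconi anaemia helicase FANCM.

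The CENP-O-P-Q-U-R complex, which helps to recruit the kinase PLK1, held 3 of the 7 higher centromere genes. Cenpu was at 8.13 on the DMSO array and 8.55 on the celastrol array, 1.34-fold higher. Cenpo was at 7.82 and 8.22, 1.32-fold higher, and Cenpq at 8.64 and 8.81. Cenpp was at 7.17 and 7.09. Itgb3bp, the gene of the remaining subunit CENP-R, which the naming rule does not include, was at 5.83 and 5.43, the second under the detection limit.

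The CENP-H-I-K-M complex was split. Cenpm was at 10.26 on the DMSO array and 9.62 on the celastrol array, 1.56-fold lower, and Cenph and Cenpi were lower by 0.21 and 0.17 on the log2 scale. Cenpk had the highest difference of the centromere genes, at 8.11 and 8.60, 1.41-fold higher. The proteins that contact CENP-A nucleosomes directly were near level, with a difference of 0.09 for Cenpc1 and 0.04 for Cenpn, whose partner Cenpl had -0.01.

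At the outer kinetochore, Cenpf and Cenpe differed in sign. Cenpf, a large corona protein, was at 9.08 on the DMSO array and 9.55 on the celastrol array, 1.38-fold higher. Cenpe, itself a kinesin that moves chromosomes to the spindle equator, was at 9.71 and 9.53, 1.13-fold lower. Counted with the mitotic kinesins, it makes 10 of 12 lower, with a median of -0.27. Kif2a, also placed at spindle poles but counted with the other kinesins, was higher by 0.79 on the log2 scale. The count of lower mitotic genes thus depends on where the class borders lie. Of the remaining centromere genes, Cenpb, which binds a satellite DNA motif, stood at 7.71 and 7.46. Cenpv was at 6.64 and 6.47, and Cenpj, a centriole protein in spite of its symbol, at 6.85 and 6.69.

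**Figure D3:**
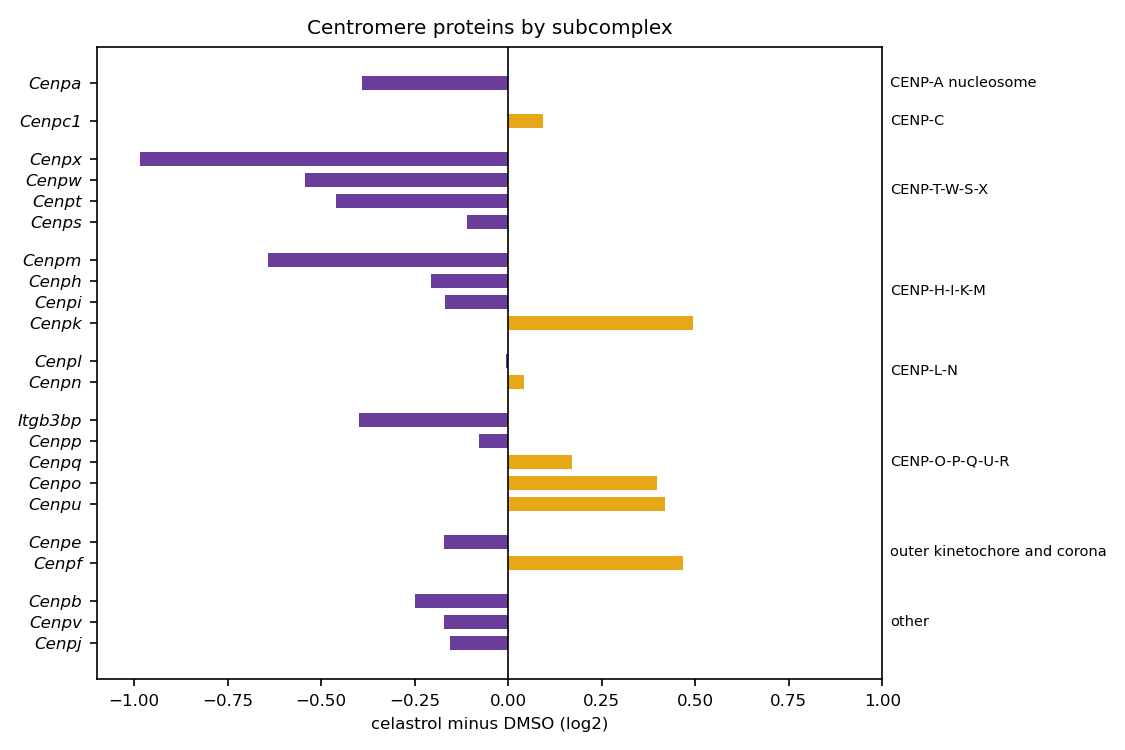
Difference celastrol minus DMSO (log2, x axis) of each centromere gene, 1 bar per gene and starting at 0, grouped by subcomplex, with Itgb3bp (CENP-R) added. All 4 bars of CENP-T-W-S-X point left, down to -0.98 for Cenpx, and the bars of Cenpk, Cenpf, Cenpu and Cenpo reach between 0.40 and 0.49 to the right.

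Partner genes were set beside the members, from lists chosen with earlier results of these data known. Of 23 detected spindle and cytokinesis partners 21 were lower (91.3%), against 51.9% of all detected genes. The list also holds general cell cycle regulators, among them Ccnb2, Ccna2, Cdc20 and Cdk1. Of the 23, 13 were lower by at least 0.32 on the log2 scale, where 16% of detected genes were. The median was -0.34, close to that of the mitotic kinesins. The spindle protein gene Nusap1 was at 10.64 on the DMSO array and 9.61 on the celastrol array, and Aspm, a spindle pole protein gene, at 9.23 and 8.48. At the upper end stood the mitotic kinases Nek2, at 9.76 and 10.22, and Aurka, at 10.42 and 10.52. Of 26 kinetochore partners 19 were lower (73.1%), with a median of -0.21. The 19 include Itgb3bp, which passed the detection limit on the DMSO array alone. Aurkb, the kinase of the chromosomal passenger complex that Kif20a carries, was at 11.02 and 10.36, and Spc25, of the NDC80 complex, at 8.53 and 7.88. Zwint and Dsn1, of the outer kinetochore, were higher, Zwint at 11.64 and 12.20 and Dsn1 at 9.11 and 9.55. Kinetochore genes thus lay on both sides of 0, as the centromere genes did.

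Genes of replication licensing, which act before mitosis, lay on the other side, with 19 of 23 higher, where 48.1% of detected genes were, and a median of 0.19. Mcm10 was at 9.26 on the DMSO array and 10.10 on the celastrol array, and Cdt1 at 10.34 and 11.07, while Gins2 (-0.28) and Orc3 (-0.23) were lowest. The difference between these lists was not tested.

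The partners of the transport kinesins were mixed. The 13 detected kinesin light chains and adaptors had a median of 0.00, with 7 lower (53.8%), near the 51.9% of all detected genes. Plekhm2, which links lysosomes to kinesin-1, was at 8.35 on the DMSO array and 9.17 on the celastrol array, 1.76-fold higher, and Trak2, a mitochondrial adaptor, had a difference of 0.17, as had Klc3. Kifap3, which joins Kif3a and Kif3b in heterotrimeric kinesin, was at 9.22 and 8.77, so all 3 subunit genes of that motor were lower. Mapk8ip2 was at 5.95 and 5.65, the second under the detection limit, so its place among the 7 lower genes was fixed by that limit. Dynein and dynactin, the minus-end transport machinery, had a median of -0.14, with 12 of 19 lower (63.2%). Ndel1, a dynein regulator, was at 9.69 and 10.34, and Dync1h1, the heavy chain, at 10.51 and 10.96, while Actr1a (-0.41) and Dynlrb1 (-0.35) were lowest.

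**Figure D4:**
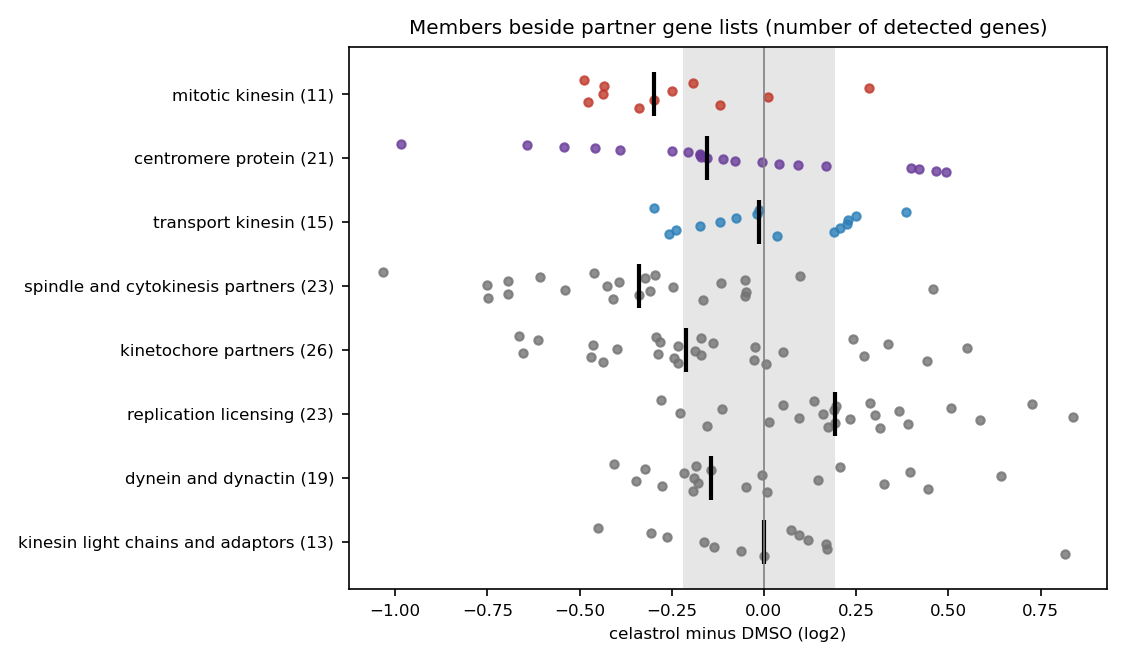
Difference celastrol minus DMSO (log2, x axis) of each detected gene, 1 point per gene, for 3 classes of members (coloured) and 5 partner lists (grey), with medians as bars and the middle 50% of all detected genes shaded. Medians run from -0.34 for spindle and cytokinesis partners to 0.19 for replication licensing, with mitotic kinesins at -0.30.

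Promoters were read because many late cell cycle genes carry the CHR (cell cycle genes homology region), bound by the DREAM and MMB complexes, and CCAAT boxes, bound by NF-Y. RefSeq promoters of build GRCm38.p6, 250 bases before to 50 after each listed start site, matched 49 of the 57 detected members by symbol. Each was searched on both strands for the CHR spelled TTTGAA or TTCGAA and for the box CCAAT, and a gene held a motif if any of its listed start sites did. The windows below run from 120 bases before the start site through 30 bases from it, 5' to 3' on the strand of the gene, with CHR and CCAAT matches of either strand in capitals. They show lower mitotic kinesins (Kif11, Kif22, Kif4), the higher Kif18b, Cenpa, and, beyond or nearest the 1.5-fold limits, Kif26b, Kif24, Cenpx and Kif2a. Cenpm, also beyond 1.5-fold, is not printed. In its promoter a CHR match began at -83 from the start site, and CCAAT matches at -172 and -131.
Kif11: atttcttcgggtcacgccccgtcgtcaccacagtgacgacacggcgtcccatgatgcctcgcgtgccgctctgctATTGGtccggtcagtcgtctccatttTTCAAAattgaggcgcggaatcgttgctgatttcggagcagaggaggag
Kif22: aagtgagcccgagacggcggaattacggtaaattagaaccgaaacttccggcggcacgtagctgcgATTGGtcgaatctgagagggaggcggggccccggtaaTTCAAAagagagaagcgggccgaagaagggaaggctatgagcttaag
Kif4: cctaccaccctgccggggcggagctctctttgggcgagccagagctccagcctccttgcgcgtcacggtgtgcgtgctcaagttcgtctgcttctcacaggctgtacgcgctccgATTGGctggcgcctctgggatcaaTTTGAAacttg
Kif18b: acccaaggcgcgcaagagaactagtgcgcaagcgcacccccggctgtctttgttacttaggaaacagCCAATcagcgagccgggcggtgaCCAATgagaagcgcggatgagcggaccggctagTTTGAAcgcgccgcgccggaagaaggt
Cenpa: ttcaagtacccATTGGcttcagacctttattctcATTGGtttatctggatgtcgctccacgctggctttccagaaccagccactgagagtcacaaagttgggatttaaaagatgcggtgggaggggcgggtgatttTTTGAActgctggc
Kif26b: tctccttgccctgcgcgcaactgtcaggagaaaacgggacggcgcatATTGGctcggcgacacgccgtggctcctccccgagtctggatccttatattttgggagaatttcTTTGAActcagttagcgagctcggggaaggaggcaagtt
Kif24: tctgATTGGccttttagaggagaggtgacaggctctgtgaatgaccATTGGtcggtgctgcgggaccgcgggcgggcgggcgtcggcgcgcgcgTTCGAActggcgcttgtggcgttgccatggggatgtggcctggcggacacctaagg
Cenpx: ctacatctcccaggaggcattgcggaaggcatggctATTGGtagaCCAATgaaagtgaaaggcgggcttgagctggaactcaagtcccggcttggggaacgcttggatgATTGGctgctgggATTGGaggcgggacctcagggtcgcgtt
Kif2a: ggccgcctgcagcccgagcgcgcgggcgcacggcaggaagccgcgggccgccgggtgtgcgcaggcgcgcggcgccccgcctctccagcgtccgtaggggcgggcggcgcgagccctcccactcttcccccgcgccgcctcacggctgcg
The windows were taken from Kif11 at chr19:37376262-37376411 (plus strand), Kif22 at chr7:127042391-127042540 (minus strand), Kif4 at chrX:100625945-100626094 (plus strand), Kif18b at chr11:102925095-102925244 (minus strand) and Cenpa at chr5:30666766-30666915 (plus strand). The others were from Kif26b at chr1:178529005-178529154 (plus strand), Kif24 at chr4:41464819-41464968 (minus strand), Cenpx at chr11:120713779-120713928 (minus strand) and Kif2a at chr13:107022326-107022475 (minus strand), the first listed of 2 start sites for each of the last pair.

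A CHR was present for 9 of 10 mitotic kinesins with a promoter (90%), for 1 of 10 transport kinesins (Kif1a), for 2 of 8 other kinesins and for 6 of 21 centromere genes (28.6%). The share was 16% of the 11016 detected genes with a promoter and 21.7% of all 27025 genes of that table. CHR and CCAAT stood together in the same promoter for 6 of 10 mitotic kinesins (60%), against 6.53% of detected genes. High shares were not particular to mitotic kinesins. Of spindle and cytokinesis partners with a promoter, 76.2% held a CHR and 71.4% held both motifs. For kinetochore partners the shares were 57.1% and 38.1%, and for replication licensing 33.3% and 22.2%. Dynein and dynactin had 20% and 13.3%, and kinesin light chains and adaptors 8.33% and 0%. The other kinesins with both were Kif26b and Kif24, which had the lowest differences of that class, and neither motif was found in the windows of Kif2a, which had its highest. In Kif11, Kif22, Kif4, Cenpa, Kif26b and Kif24, all lower with celastrol, and in the higher Kif18b, the printed CHR lies near the start site. A CCAAT box lies upstream of it in each. Mitotic kinesins that are not printed include other layouts. Kif2c had its CHR at -103 and no CCAAT, and Kif14 had its CHR at -228, upstream of its CCAAT at -92. Kif15 and Kif20b held a CHR without a CCAAT box.

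The mitotic kinesins with a CHR had a median difference of -0.30, with 88.9% of 9 lower, and the one without it, Kif18a, had 0.01. Both other kinesins with a CHR were lower (median -0.66), as were 33.3% of the 6 without one (median 0.11). That median rests in part on Kif6 and Kif7, which have no settled sign. Kif21b (-0.31) and Kif19a (-0.24), both lower, had no matched promoter and entered neither group. Kif18b held a CHR and a pair of CCAAT boxes and was higher, and Cenpf, with both motifs, had a difference of 0.47. The centromere genes with a CHR had a median of -0.20 over 6 genes and those without one -0.15 over 15, and Cenpx, with the lowest difference of them, held CCAAT boxes alone. Over all detected genes, the 719 with both motifs in one promoter had a median difference of -0.05 and 56.6% were lower, against -0.01 and 51% for the 5480 with neither. The CHR and CCAAT matches overlapped by position in Cenpw alone among the members. A match describes letters in this window and not a bound site.

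**Figure D5:**
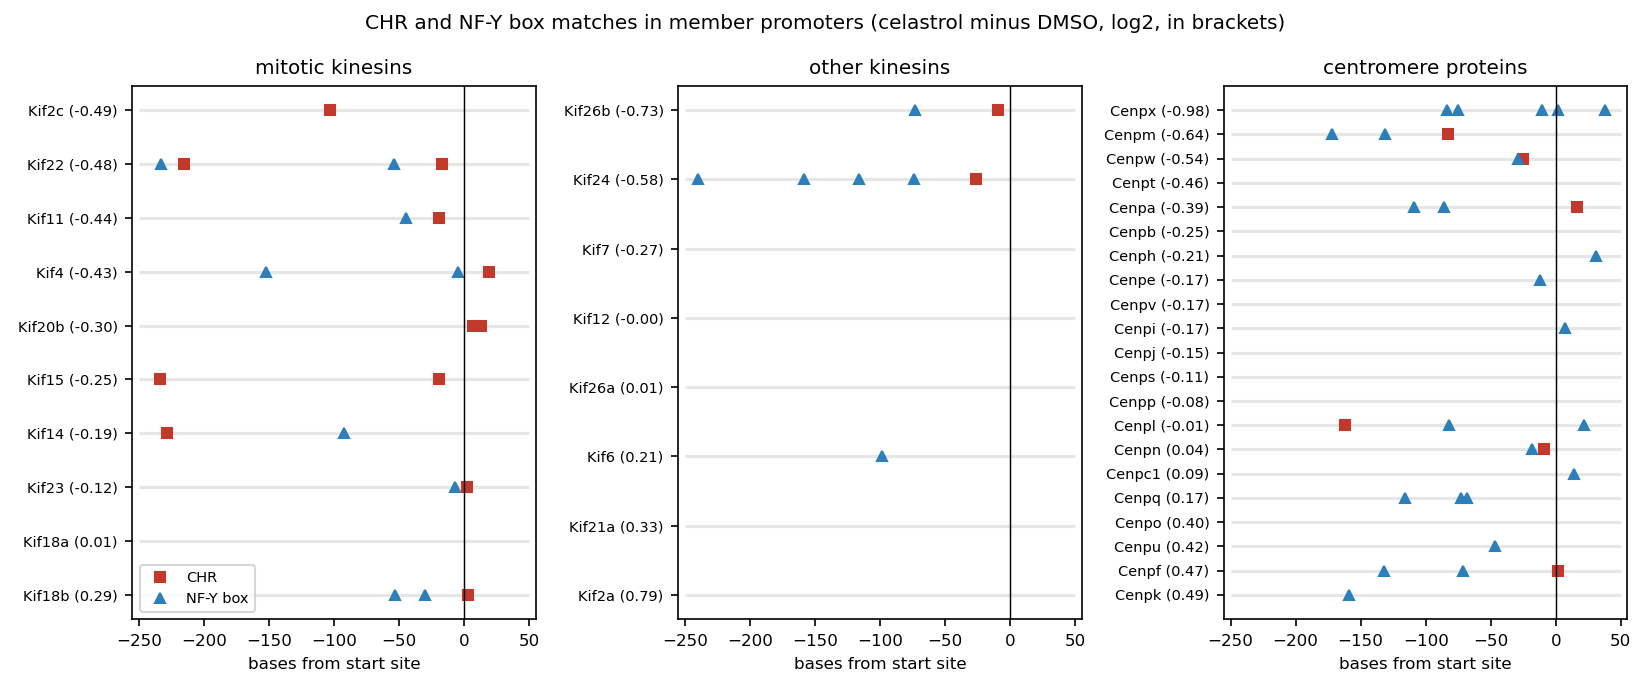
Positions, in bases from the start site (x axis, first base of the match), of CHR matches (squares) and of NF-Y boxes, the pentamer searched in the text (triangles), at the first listed start site of each member with a promoter, ordered by difference within class. Squares appear for 9 of 10 mitotic kinesins, for Kif26b and Kif24 at the top of the other kinesins, and for 6 of 21 centromere genes.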

How the data were processed

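The deposited values are log2 signals per probe set, made by the authors with RMA per the submitters' processing notes. The version and settings of that step, and whether it took in further arrays, were not given in the sources used here. RMA can understate differences of probe sets near background. The table held 35556 probe sets, of which GEO's platform annotation named 1 gene for 21797, several for 1613 and none for 12146; only the first entered. Where a gene had several probe sets, the brightest over both arrays was used. The value table had 0 columns beyond the 2 arrays. Depth does not apply to arrays, and their number limits the precision. All 61 members were found by Entrez identifier in a GRCm38.p6 gene table.

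With 1 array per group no test was possible, so counts and medians are set beside those of all detected genes. Members and lists were chosen with earlier results of these data known. Named members were, per class, the 6 lowest and 4 highest differences, all past 1.5-fold, all with several probe sets, and Cenpa and Cenpe; values of the remaining members are also given. Of each partner list the 2 lowest and 2 highest were named. Alternatives were other detection limits, probe set means, scalings, current symbols, fold thresholds and a 10% trimmed mean. The computation was tested on simulated data. Tools were numpy 2.4.6, statsmodels 0.14.6 and pandas 2.3.3 under Python 3.11.15, with figures by matplotlib 3.10.9.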

Additional observations from a re-analysis of the deposited data

How the results depend on the processing

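Over 7 changes of the detection limit, probe set summary, scaling and symbols and over the trimmed mean, the mitotic median stayed between -0.30 and -0.25, the transport median between -0.02 and 0.02, changing sign, and the centromere median between -0.15 and -0.09. The median of the other kinesins was -0.12 and depended on the detection limit: it was -0.24 with the median of all probe sets as the limit and 0.012 with no limit, since these settings keep different genes. At a threshold of 2-fold the counts of 3 lower and 1 higher member became 0 and 0. At a log2 difference of 0.32 they became 12 and 7 of the 57 detected members. Of all detected genes, 16% were lower and 14.8% higher by that much. Averaging probe sets changed the sign of Kif6 (-0.10), brought Kif14 to 0.00 and Kif7 to -0.08, and subtracting the median difference changed the sign of Kif12. No paired analysis was possible because each group has 1 array.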

Other observations

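Some members share a promoter region with a neighbour transcribed the other way, with start sites under 1000 bases apart in GRCm38.p6. Of 8 such pairs in which both genes were detected, 5 had differences of the same sign, a count from which nothing is read, since 51.9% of all detected genes were lower and 48.1% higher. Kif24 and Nudt2, a nucleotide hydrolase gene, were both lower (-0.58 and -0.82), as were Cenpx and Lrrc45, a centrosomal gene (-0.98 and -0.28). Cenpk and Ppwd1, a cyclophilin-type gene, were both higher (0.49 and 0.21). Cenpn was level (0.04) while its neighbour Cmc2, a mitochondrial gene, stood at 10.67 with DMSO and 10.02 with celastrol. Kif4 (-0.43) lay beside Pdzd11, which was near level at -0.05, and Kif15 (-0.25) beside 1110059G10Rik (-0.60). The signs also differed for Cenpp (-0.08) and Nol8 (0.09) and for Kif1c (-0.26) and Inca1 (0.01).

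An E2F site spelled TTTGGCGC or TTTCGCGC, searched on both strands after the other motif results were seen, was present in the promoters of Kif15 and Kif18a among the mitotic kinesins and of Cenpl among the centromere genes. It was found in 6 of 18 replication licensing promoters (33.3%), against 1.69% of detected genes, and in no promoter of the transport or other kinesins. Kif18a, the mitotic kinesin without a CHR in its window, had a difference of 0.01.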
